A study of Mus musculus with 2 samples.

Results

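The genes of the insulin-like growth factor (IGF) system were followed in single cells of mouse perigonadal white adipose tissue (gWAT). They were the ligands Igf1 and Igf2, the receptors Igf1r and Igf2r, and the 6 binding protein genes Igfbp2 to Igfbp7. These 10 genes were picked by their symbols, not by their levels, and all 10 were among the 32285 genes of the deposited tables. The cells came from male Cyp1a1 fate reporter mice (Cyp1a1Cre x R26LSL-eYFP), in which Cre made from the Cyp1a1 gene switches on the yellow fluorescent protein eYFP for good. Mice of the LFD group ate a purified diet with 10% fat and those of the HFD group one with 60% fat, in both cases for 12 weeks. Both groups carried the reporter, and both received FICZ at 10 mg/kg 5 days before the fat was taken. FICZ is a ligand of the aryl hydrocarbon receptor (AHR), a transcription factor that turns on Cyp1a1. Only live cells with eYFP were sorted, 100000 events per group, from the stromovascular fraction, which is what remains of fat tissue after mature adipocytes have been removed. An eYFP+ cell is therefore one in which Cyp1a1 was active at some time, not necessarily at collection, and cells that never used Cyp1a1 were not collected. Each diet gave 1 library from pooled mice, no cell could be traced to a mouse, and every comparison of the diets is thus between 1 library and 1 library, without a replicate check.

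After filtering, 8902 LFD cells with a median of 10642.5 UMIs (unique molecular identifiers, each a tag of 1 captured RNA molecule) and 7750 HFD cells with a median of 13336 UMIs were used. Cells were named from marker genes, and a name ending in -like rests on those markers alone. None of the 10 IGF genes took part in the naming. Of the 15 classes, 4 were stromal. Cells positive for Wt1, a transcription factor of visceral fat stroma, were split into keratin-low stromal cells (3023 LFD and 836 HFD), keratin-high mesothelial-like cells (1296 and 1756) and cycling Wt1+ cells (1397 and 1004). The last stromal class was fibroblastic adipose progenitor cells (APC-like, 215 and 575). The keratin-high cells showed a median of 6 (LFD) and 7 (HFD) of 11 mesothelial markers along with 7 and 9 of 15 fibroblastic markers, so they were not mesothelial by all of their genes. The line between keratin-low and keratin-high cells was not sharp, since 24.3% of these cells from the LFD and 35.1% from the HFD library had 3 to 5 mesothelial markers. Keratin-low cells had a median of 1 mesothelial marker in the LFD and 3 in the HFD library. HFD cells were also deeper, with a median of 16823.5 against 11195 UMIs in keratin-low cells, and deeper cells show more markers. Markers of mature adipocytes had a median of 0 in every class. Mural-like cells numbered 3 and 5, although 15 LFD and 39 HFD cells had 5 or more mural markers. The tables have no row for eYFP, so the sort itself could not be checked. In all, 27 barcodes occurred in both libraries, 19 of them among the cells used.

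IGF1 and IGF2 are secreted relatives of insulin. IGF1 is made in the liver under growth hormone and locally by mesenchymal cells and macrophages, it acts through the tyrosine kinase receptor encoded by Igf1r, and in fat it promotes growth and differentiation of adipocyte precursors. The Igf2r product, also the mannose-6-phosphate receptor, carries IGF2 and lysosomal enzymes to lysosomes and does not signal like the Igf1r product. Binding proteins hold the ligands in tissue and plasma, and proteases such as the one encoded by Pappa cut some of them and so release the ligand.

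The sorted cells had used an AHR target gene, so the 250 bases before each RefSeq transcript start of the 10 genes (build GRCm38.p6) were searched for GCGTG, the core that AHR binds with its partner, on both strands (CACGC on the strand shown). A match was found in 6 of 14 windows, 1 each for 6 of the 10 genes, with 11 sites in all. Over all 32851 windows of the same length, 28.2% held a match. For each of these 6 genes the site nearest the start is shown with 12 bases on either side, read 5′ to 3′ on the gene's strand with the core in capitals, to let the sites be compared with one another.
Igf1: gagctactgcatGCGTGgtggtctttgaa
Igf1r: ccacggcacgcgGCGTGctcggctttgac
Igf2r: cctgtcccgcgcGCGTGcgatgctcatgt
Igfbp2: agcacgtgccctCACGCaagagtgcgggg
Igfbp3: cgccgttccgggGCGTGtcctccgccacc
Igfbp7: ggagccggtcagCACGCatggtggacgtg
The Igf1 site lay 196 bases before a start within the annotated gene, at chr10:87860903-87860931 (plus strand). The Igf1r site lay 99 bases before a start that is upstream of the annotated gene, at chr7:67952146-67952174 (plus strand). The Igf2r site lay 103 bases before the start, at chr17:12769793-12769821 (minus strand), and the Igfbp2 site 132 bases before it, at chr1:72824336-72824364 (plus strand). For Igfbp3 the distance was 55 bases, at chr11:7213962-7213990 (minus strand), and for Igfbp7 it was 187 bases, at chr5:77408216-77408244 (minus strand). Only the Igfbp2 site had the longer form TNGCGTG, which 4.10% of all windows held. The letters were not in the windows of Igf2, Igfbp4, Igfbp5 and Igfbp6. A match is a run of letters and not a measured binding site. Of the genes called in keratin-high cells below, Igf1 had the letters and Igfbp5 did not.

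Levels are given as CPM, the UMIs of a gene per 1000000 UMIs of all cells of a class in a library. Each level has an exact 95% Poisson interval, each HFD to LFD ratio an exact conditional binomial interval and each share of cells a Clopper-Pearson interval. These intervals describe counting error only, not variation among cells, among mice or between preparations. UMIs of several of the genes varied more among cells than counting alone would give, so intervals that allowed for this would be wider. In LFD the variance over the mean was 20.5 for Igfbp7 in endothelial-like and 7.80 for Igf1 in APC-like cells, but 1.19 for Igf1r in keratin-low cells. A gene is described as higher or lower where the interval of its ratio leaves out 1. RNA set free by broken cells adds UMIs to every droplet, and its level was estimated per class from genes of another lineage. The 10 genes occupied different cells, leaving aside classes with under 100 cells in either library, such as mural-like and neutrophil-like cells. Igf1, Igfbp4 and Igfbp7 were high in APC-like and keratin-low cells, Igfbp5 and Igfbp6 were highest in keratin-high cells, Igfbp3 and Igfbp7 were highest in endothelial-like cells, and Igf1r and Igf2r were spread over stromal, endothelial-like and macrophage-like cells. B-like and plasma cell-like cells held under 50 CPM of each.

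**Figure D1:**
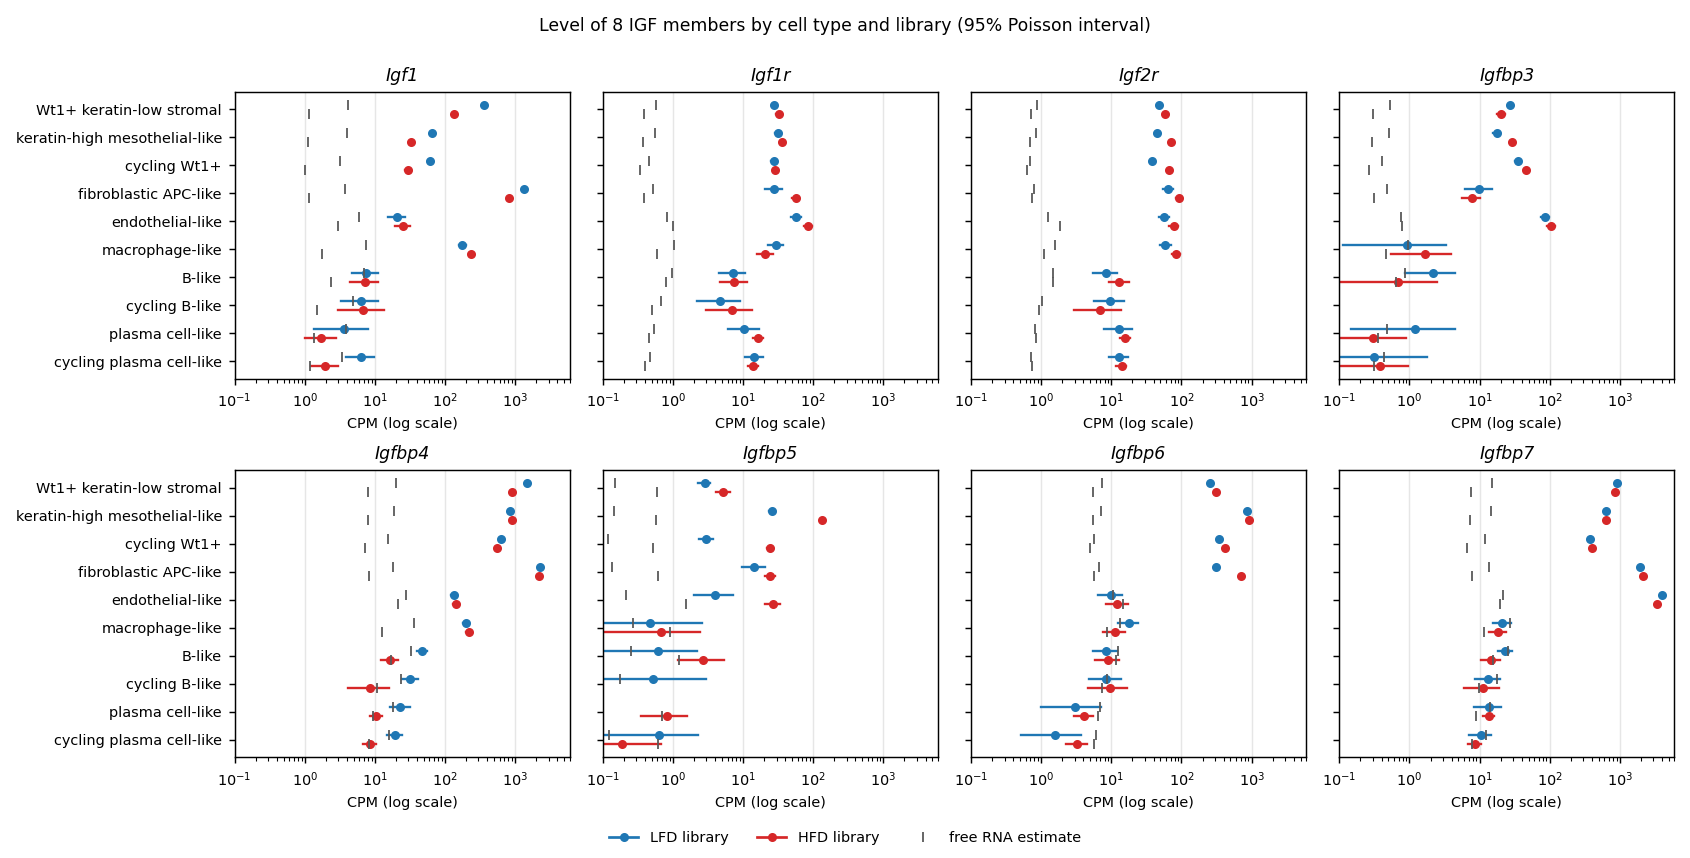
Level of the 8 IGF genes with enough counts, in CPM on a log axis from 0.1 upwards, in the 10 classes with at least 100 cells in both libraries, with LFD in blue, HFD in red, 95% Poisson intervals as lines and the free RNA estimate as grey ticks. Igf1 is highest in fibroblastic APC-like cells at 1326 and 825 CPM and lies further left in HFD in all 4 stromal classes, and Igfbp5 lies further right in HFD in keratin-high cells, at 133 against 26.0 CPM, while a class with no count has no point.

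Igf1 (chr10:87858265-87937042, plus strand, in GENCODE M21) was lower in the HFD library in each of the 4 stromal classes. In APC-like cells, fibroblastic cells that can form adipocytes, its level was 1326 CPM (1277 to 1376) on LFD and 825 CPM (803 to 849) on HFD. In keratin-low cells it was 355 CPM (349 to 361) and 135 CPM (129 to 142). These were the highest stromal levels of Igf1 in both libraries, and the intervals of the diets were far apart. The HFD to LFD ratio was 0.623 (0.594 to 0.652) in APC-like and 0.381 (0.363 to 0.400) in keratin-low cells. Keratin-high cells had 66.2 and 32.6 CPM, a ratio of 0.492 (0.451 to 0.536), and cycling Wt1+ cells 60.5 and 29.3 CPM, a ratio of 0.483 (0.439 to 0.531). The difference was also seen per cell, where the median APC-like cell held 11 Igf1 UMIs in LFD and 6 in HFD and the median keratin-low cell 3 and 1. Cells were also thinned to 2000 UMIs each, which left out shallower cells, from 0 to 38 per library in the stromal, B and plasma cell classes, 73 LFD and 29 HFD macrophage-like cells and 175 LFD and 169 HFD endothelial-like cells. Of the thinned cells, 42.9% of LFD and 21.7% of HFD keratin-low cells had an Igf1 UMI, and 81.9% and 65.1% of APC-like cells. In B-like cells, which should lack the gene, that share was 1.59% and 0.746%. Before thinning, keratin-low shares were 80.5% and 63.4%. Igf1 overlaps the antisense gene Igf1os, which was left out of the naming as well.

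Since the HFD library had fewer cells without mesothelial markers, Igf1 was also compared among Wt1+ cells outside the cycling class with the same number of these markers, from 0 to 11, a comparison chosen after seeing the data. In LFD the level was 433 CPM in cells with 0 markers, 32.7 CPM in cells with 10 and 94.9 CPM in the 33 cells with 11. HFD cells were lower in 9 of the 12 bins and higher in none. A ratio at a matched mix was also computed, in which each bin counted by its cells of both libraries together, so that both libraries had the same mix of marker numbers. For Igf1 it was 0.425. The intervals held 1 in the bins with 8, 9 and 10 markers. Among cycling Wt1+ cells only the bins from 1 to 10 markers had enough cells in both libraries. Cycling cells with 0 or 11 markers were thus left out of every matched mix. For Igf1 the ratio at a matched mix was 0.578 there. HFD was lower in 5 of the 9 bins with 50 or more UMIs, and from 6 to 9 markers the intervals held 1.

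Macrophage-like cells also carried Igf1, and there the order was the opposite. They had 178 CPM (160 to 196) on LFD and 234 CPM (217 to 252) on HFD, against free RNA estimates of 7.44 and 1.76 CPM, a ratio of 1.32 (1.16 to 1.496). Of the thinned macrophage-like cells, 23.8% and 28.2% had an Igf1 UMI, against the 1.59% and 0.746% of B-like cells, and without thinning the macrophage-like shares were 35.4% and 45.9%. The ratio turned to 0.806, with an HFD level of 134 CPM, in cells with at least 2000 UMIs and under 5% mitochondrial UMIs, so the macrophage result rests on which cells are counted. Endothelial-like cells had 20.5 and 24.8 CPM, and the interval of the ratio of 1.21 (0.832 to 1.77) held 1. That ratio lay on the other side of 1 under the stricter filter (0.558) and as a mean of per-cell CPM (0.747).

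The cells that carried the Igf1 of each library differed. Keratin-low cells held 68.2% of all Igf1 UMIs in LFD and 20.6% in HFD, while they held 37.5% and 13.7% of all UMIs. APC-like cells held 15.0% and 53.3%, with 2.21% and 5.82% of all UMIs. Over all cells used, Igf1 had 18652 UMIs (195 CPM) on LFD and 9233 (90.2 CPM) on HFD. That total mixes the level within a class with the number of cells of each class, and cell numbers of a sorted sample are not those of the tissue.

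**Figure D2:**
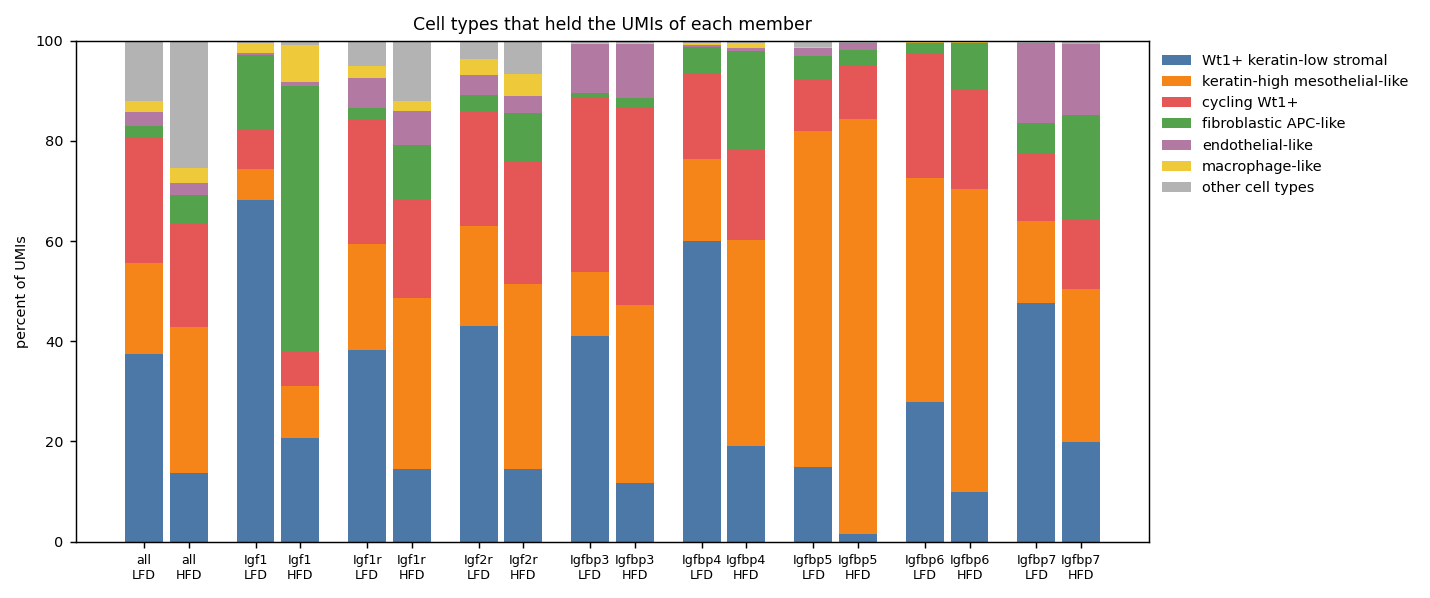
Share of the UMIs of each of 8 IGF genes (percent, stacked bars) that came from each class, per library, with the share of all UMIs at the left. Keratin-low cells (blue) held 68.2% of LFD and 20.6% of HFD Igf1 UMIs, APC-like cells (green) 15.0% and 53.3%, and keratin-high cells (orange) 67.0% and 82.9% of Igfbp5 UMIs.

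Igf2, the fetal growth factor, was nearly absent. It had 15 UMIs in all LFD cells and 6 in all HFD cells, 10 and 2 of them in keratin-low cells, and no ratio is given. Its counts could include reads of genes that overlap it at chr7:142650766-142666816 (minus strand), which are Gm49394 on the same strand and Igf2os on the other. H19, the non-coding imprinted neighbour of Igf2 that is expressed from the other parental copy, had 3526 and 570 UMIs and is described with the pathway genes.

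Igf1r (chr7:67952827-68233668, plus strand) was higher in HFD in 4 of the 8 classes in which it had 50 or more UMIs, and lower in none beyond counting error. The largest difference was in APC-like cells, with 27.4 CPM (20.8 to 35.5) on LFD and 56.4 CPM (50.5 to 62.8) on HFD, a ratio of 2.06 (1.55 to 2.77) that became 1.96 with median-ratio scaling, a scaling by the typical gene instead of by all UMIs. After thinning, 5.39% and 13.2% of APC-like cells had an Igf1r UMI, against 1.47% and 1.19% of B-like cells, and without thinning the APC-like shares were 22.8% and 40.2%. Endothelial-like cells had 56.3 CPM (47.8 to 66.0) and 85.1 CPM (74.1 to 97.2), and the ratio was 1.51 (1.22 to 1.87). In APC-like cells Igf1 was thus lower and the gene of its receptor higher in the HFD library. The Wt1+ classes lay close together, at 27.2 to 31.4 CPM in LFD and 28.8 to 35.6 CPM in HFD, with ratios of 1.15 in keratin-low, 1.13 in keratin-high and 1.06 (0.947 to 1.18) in cycling cells, the last 0.961 with median-ratio scaling. At a matched mix of marker numbers the ratio was 1.18 outside and 1.05 within the cycling class. Macrophage-like cells had 29.4 and 20.5 CPM, with an interval of 0.482 to 1.01 around a ratio of 0.697.

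Igf2r (chr17:12682406-12769664, minus strand) was higher in HFD in 6 of 9 classes and lower in none. Keratin-high cells had 45.0 CPM (41.9 to 48.3) on LFD and 71.6 CPM (68.6 to 74.7) on HFD, a ratio of 1.59 (1.46 to 1.73). Cycling Wt1+ cells had 37.5 CPM (35.1 to 40.0) and 67.2 CPM (63.7 to 70.8), the largest of its class ratios at 1.79 (1.65 to 1.95). The remaining 4 classes, keratin-low, APC-like, endothelial-like and macrophage-like cells, had ratios from 1.25 to 1.43. Among cells with the same number of mesothelial markers it was higher in HFD in 11 of 12 bins, with a ratio of 1.41 at a matched mix, and within the cycling class it was higher in 8 of 10 bins, with a ratio of 1.55. The ratio of endothelial-like cells, 1.37, became 2.25 under the stricter cell filter. The B and plasma cell classes stayed between 6.88 and 15.8 CPM. Reads of the antisense gene Airn, which overlaps Igf2r, could not be told apart from those of Igf2r if strand was not used in counting.

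Igfbp4 (chr11:99041244-99054392, plus strand) encodes a binding protein that Pappa cleaves and that mostly restrains IGF1. Of thinned cells of the 4 stromal classes, 61.9 to 97.1% had an Igfbp4 UMI in either library, against 10.5% of LFD and 3.58% of HFD B-like cells. Without thinning these shares were 97.5 to 99.5%, and 16.7% and 6.503% in B-like cells. Its level in keratin-low cells was 1494 CPM (1482 to 1507) on LFD and 889 CPM (873 to 904) on HFD. The ratio there was 0.595 (0.583 to 0.606), while APC-like cells, at 2266 and 2174 CPM, had a ratio of 0.959 (0.928 to 0.992). Keratin-high cells had 841 and 905 CPM, a ratio of 1.08 (1.05 to 1.10) that became 0.996 with median-ratio scaling, and cycling cells 632 and 556 CPM, a ratio of 0.880 (0.859 to 0.902). The difference followed the mesothelial markers closely. Cells with 0 markers had 1695 CPM in LFD and 884 CPM in HFD, a ratio of 0.522 (0.461 to 0.588). Cells with 11 markers had 644 and 1264 CPM, a ratio of 1.96 (1.75 to 2.20). In LFD the level was lower with each further marker, from 1695 CPM at 0 to 799 CPM at 7, and in HFD it lay between 813 and 950 CPM up to 8 markers and was higher beyond. At a matched mix of marker numbers the ratio was 0.745 outside the cycling class and 0.909 within it, where HFD was higher in 4 of 10 bins and lower in 4.

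Macrophage-like cells also carried Igfbp4, at 199 CPM (181 to 219) on LFD and 218 CPM (202 to 236) on HFD, above free RNA estimates of 35.6 and 12.5 CPM, with a ratio of 1.09 whose interval held 1 and that became 0.561 under the stricter cell filter, with an HFD level of 108 CPM. Lymphoid cells had much less. B-like cells had 47.7 and 16.3 CPM, a ratio of 0.342 (0.242 to 0.476), where the free RNA estimate was 33.0 and 16.9 CPM. Plasma cell-like cells had 23.2 and 10.4 CPM, a ratio of 0.450, where that estimate was 18.3 and 9.49 CPM. Cycling B-like and cycling plasma cell-like cells had ratios of 0.272 and 0.439, from 31.6 and 8.60 CPM and from 19.3 and 8.45 CPM, where the free RNA estimates were 23.4 and 10.7 CPM and 16.1 and 8.28 CPM. The free RNA estimate was thus lower in HFD as well in these 4 classes. With it subtracted, the HFD level was 0.931 CPM in plasma cell-like and 0.168 CPM in cycling plasma cell-like cells. The ratios of 0.190 and 0.0534 that result thus rest on HFD levels that hardly exceeded free RNA. In B-like and cycling B-like cells the HFD level was under the estimate, so no such ratio exists. Without doublet removal the ratio was 0.188 in plasma cell-like and 0.502 in cycling B-like cells, and the levels in cycling plasma cell-like cells were 171 and 101 CPM.

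Igfbp5 (chr1:72857932-72874884, minus strand) encodes a binding protein that attaches to extracellular matrix. It showed the largest differences of the 10 genes. In keratin-high cells its level was 26.0 CPM (23.6 to 28.5) on LFD and 133 CPM (129 to 138) on HFD, a ratio of 5.13 (4.65 to 5.67). In cycling Wt1+ cells it was 2.97 CPM (2.32 to 3.74) and 24.1 CPM (22.0 to 26.3), and the ratio was 8.11 (6.32 to 10.6). A minority of cells carried the gene. After thinning, 4.405% of LFD and 12.7% of HFD keratin-high cells had an Igfbp5 UMI, against 0.122% and 0.448% of B-like cells, and without thinning the keratin-high shares were 11.7% and 33.0%. The tenth of keratin-high cells with the most Igfbp5 held 95.1% of its UMIs in LFD and 78.3% in HFD, and up to 85 UMIs were found in 1 HFD cell. Without the 1% of cells with the most UMIs of the gene, the ratio was 6.54 in keratin-high and 13.6 in cycling cells. The LFD level in keratin-high cells was then 16.3 CPM, and the levels in cycling cells were 0.973 and 13.2 CPM.

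The diets differed in Igfbp5 chiefly among cells with many mesothelial markers. The ratio was 1.04 (0.751 to 1.43) at 4 markers, 2.46 (1.98 to 3.09) at 6 and 17.1 (10.97 to 28.1) at 9. HFD was higher in 7 of the 9 bins with 50 or more UMIs. At a matched mix the ratio was 4.10 outside and 4.67 within the cycling class. Endothelial-like cells had 11 Igfbp5 UMIs in LFD (4.02 CPM) and 68 in HFD (26.8 CPM), with a ratio of 6.66 (3.50 to 13.96) that was 2.74 when only the cells passing the marker gate were used and 3.78 as a mean of per-cell CPM. The free RNA estimate there was 0.213 and 1.55 CPM. APC-like cells had 14.2 and 24.5 CPM, a ratio of 1.73 (1.16 to 2.65) that was 3.17 without the 1% of cells with the most UMIs, with an HFD level of 13.7 CPM. Keratin-low cells had 2.82 and 5.20 CPM, a ratio of 1.84 (1.35 to 2.52) that turned to 0.718 among cells passing the marker gate. Without the top 1% of keratin-low cells these levels were 1.24 and 2.02 CPM. Igfbp2, its neighbour on chromosome 1 (chr1:72824503-72852474, plus strand), was nearly absent, with 34 UMIs in LFD and 69 in HFD, 8 and 33 of them in keratin-high cells.

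Igfbp6 (chr15:102144362-102149511, plus strand) encodes a binding protein with a preference for IGF2. Keratin-high cells had the highest level, at 854 CPM (841 to 868) on LFD and 914 CPM (903 to 925) on HFD, a ratio of 1.07 that became 0.989 with median-ratio scaling. It followed the mesothelial markers in both libraries, from 152 CPM in LFD and 165 CPM in HFD at 0 markers to 1150.1 and 1687 CPM at 11, and its ratio at a matched mix was 1.01 outside and 0.987 within the cycling class. The diets differed most in APC-like cells. There the level was 312 CPM (289 to 337) on LFD and 709 CPM (688 to 731) on HFD, a ratio of 2.27 (2.09 to 2.47), and 39.2% and 60.8% of thinned cells had a UMI, against 1.59% and 1.64% of B-like cells. Without thinning the APC-like shares were 80.5% and 90.4%. Keratin-low and cycling cells both had a ratio of 1.21.

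Within APC-like cells, Pi16 and Dpp4 mark the early, multipotent progenitors, and 24.2% of LFD but 59.7% of HFD cells had a UMI of either gene. The cells were therefore split by these genes, a comparison chosen after seeing the data. Igfbp6 was higher in cells with Pi16 or Dpp4 in both libraries, by a ratio of 1.43 (1.21 to 1.69) on LFD and 1.59 (1.48 to 1.71) on HFD. Between the diets it had 403 and 810 CPM in cells with these UMIs, a ratio of 2.01 (1.75 to 2.32), and 282 and 508 CPM in cells without, a ratio of 1.81 (1.61 to 2.02). The difference was thus present in both sets of cells and slightly smaller than in the class as a whole. The split cannot separate kinds of cell cleanly, since a progenitor can lack a UMI of these genes when few UMIs were read. In HFD the median was 11352 UMIs in cells with these UMIs and 8772.5 in cells without, and in LFD 10143.5 and 9703. Pi16 and Dpp4 were also among the fibroblastic markers used to name the class. Igf1 had ratios of 0.569 (0.524 to 0.618) and 0.712 (0.669 to 0.759) in the same 2 sets of cells, and Igf1r ratios of 1.76 (1.06 to 3.13) and 2.39 (1.67 to 3.47).

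Igfbp7 (chr5:77349240-77408041, minus strand) encodes a secreted vascular protein that binds IGFs weakly. Endothelial-like cells led, with 3989.8 CPM (3915 to 4065) on LFD and 3387 CPM (3316 to 3460) on HFD, a ratio of 0.849 (0.825 to 0.873), and 98.4% and 94.6% of thinned endothelial-like cells had a UMI, against 4.77% and 3.88% of B-like cells. Without thinning the endothelial-like shares were 96.4% and 92.4%. APC-like cells had 1960.03 and 2140.1 CPM, a ratio of 1.09 (1.05 to 1.13). The 3 Wt1+ classes had ratios between 0.948 and 1.05, and each of these 3 directions turned under at least 1 other setting. At a matched mix the ratio was 0.943 outside and 1.06 within the cycling class. The median endothelial-like cell held 13 Igfbp7 UMIs in LFD and 6 in HFD.

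Igfbp3 (chr11:7206086-7213923, minus strand), the main carrier of IGF1 in plasma, was concentrated in few cells. The tenth of cells with the most UMIs held 80.9 to 98.9% of them in endothelial-like cells and the 3 Wt1+ classes, in either library. Endothelial-like cells had 84.9 CPM (74.3 to 96.5) on LFD and 105 CPM (92.9 to 119) on HFD, a ratio of 1.24 that became 0.909 without doublet removal and 0.861 without the 1% of cells with the most UMIs. Under the stricter cell filter these levels were 36.2 and 64.2 CPM, and the HFD level was 59.8 CPM as a mean of per-cell CPM and 51.8 CPM without the top 1% of cells. Keratin-high cells had 17.5 and 29.3 CPM, a ratio of 1.68 that became 0.734 under the stricter cell filter, with 11.3 CPM in HFD. The other Wt1+ classes lay on either side of 1. Cycling cells had 34.7 and 45.6 CPM, a ratio of 1.31 (1.97 with cells passing the marker gate), and keratin-low cells had 27.2 and 20.2 CPM, a ratio of 0.744 (0.479 under the stricter cell filter). Without the top 1% of cells the HFD level was 27.6 CPM in cycling and 18.9 CPM in keratin-high cells. Outside the cycling class 3 of the 12 bins of mesothelial markers were higher and 3 lower in HFD, and at a matched mix the ratio was 0.938. Within it 3 of 10 bins were higher and 5 lower, with ratios from 0.307 to 18.8, and at a matched mix the ratio was 0.905. The direction of Igfbp3 thus differed between classes and turned with the setting in endothelial-like and keratin-high cells. In cycling cells it turned at a matched mix, which held only cells with 1 to 10 markers.

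A change of at least 2-fold in a gene with 50 or more UMIs over both libraries was called. In keratin-low cells 1 of 8 IGF genes was called lower, Igf1, where 2.73% of all genes were, and 0 of 8 were called higher, where 1.48% of all genes were. In keratin-high cells Igf1 was called lower (background 1.24%) and Igfbp5 higher (1.34%). In cycling Wt1+ cells Igf1 was called lower (1.71%) and Igfbp5 higher (2.21%). The Igf1 call was lost in keratin-high cells when only cells passing the marker gate were used (0.656), without doublet removal (0.501) and with free RNA subtracted (0.505), and in cycling cells under the stricter filter (0.631). In APC-like cells 2 of 8, Igf1r and Igfbp6, were called higher, where 4.90% of all genes were, and 0 were called lower, where 1.53% were. With median-ratio scaling only Igfbp6 was called there. Igfbp5 was called higher in endothelial-like cells (2.65%), and 0 were called lower (0.942%). In macrophage-like cells 0 of 6 were called in either direction (1.75% of all genes higher, 1.11% lower). Igfbp4 was called lower in B-like (1.48%), cycling B-like (0.739%), plasma cell-like (1.45%) and cycling plasma cell-like cells (0.677%), with the free RNA values given above. In the same order, 0 IGF genes were called higher, where 1.64%, 1.21%, 3.00% and 1.45% of all genes were. Without doublet removal the Igfbp4 calls in cycling B-like (0.502) and cycling plasma cell-like cells (0.588) were lost, and the latter also under the stricter filter (0.504). The median ratio of the 8 genes was 1.05 in keratin-low cells, as over all genes, 1.26 in APC-like cells against 1.08 over all genes, and 1.24 against 1.09 in endothelial-like cells. The median log2 ratio of all genes scaled by all UMIs exceeded the median-ratio one by 0.11 in keratin-high, 0.14 in cycling Wt1+ and 0.12 in endothelial-like cells, was under it in plasma cell-like cells (a difference of -0.12), and was within 0.1 of it elsewhere.

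**Figure D3:**
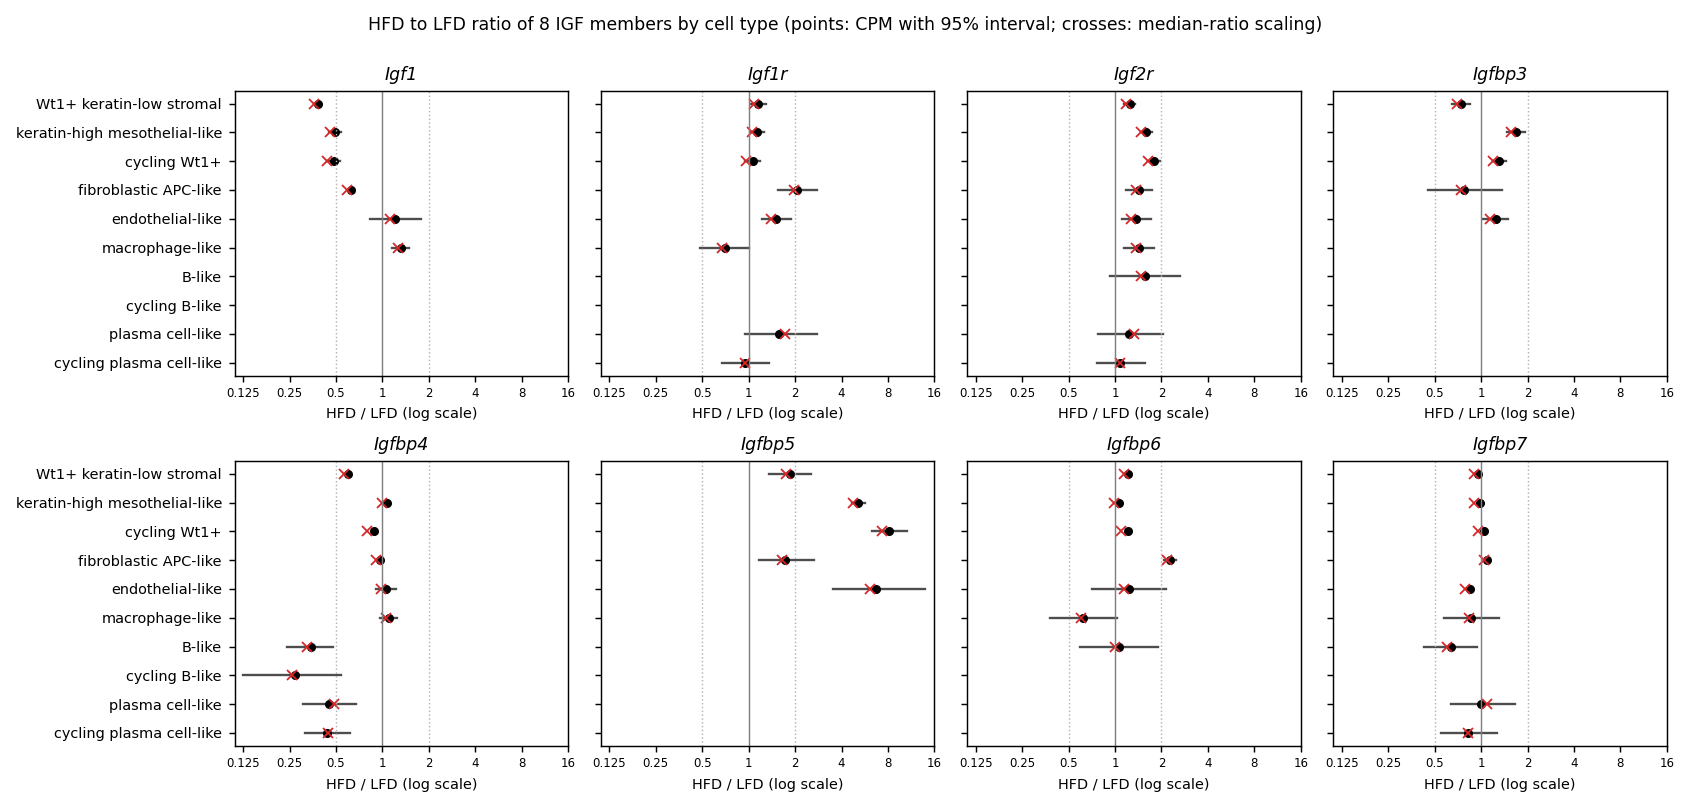
HFD to LFD ratio of 8 IGF genes on a log axis in 10 classes, with 95% intervals, a solid line at 1, dotted lines at 0.5 and 2, and crosses for median-ratio scaling. Igf1 lies between 0.381 and 0.623 in the 4 stromal classes and at 1.32 in macrophage-like cells, Igfbp5 at 5.13 and 8.11 in keratin-high and cycling Wt1+ cells, and Igf2r between 1.08 and 1.79 in the 9 classes with enough counts.

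Another 41 genes of the IGF pathway, chosen as binding protein relatives, proteases, adaptors and target genes, were read the same way. In keratin-low cells 2 of 32 with enough UMIs were called higher and 3 lower. In keratin-high cells 3 of 30 were called higher and 1 lower, in cycling cells 3 and 2 of 30, and in APC-like cells 3 and 3 of 29. The background is as above, and the median ratio of the list was 0.962, 1.09, 1.07 and 1.16 in these classes. Endothelial-like cells had 2 of 19 called higher, Pik3ca at 2.07 and Stc1 at 2.02, both under 2 with median-ratio scaling. The other binding protein genes were nearly silent, with 0 UMIs of Igfbp1 in either library and 1 and 0 of Igfbpl1. Igfals, the acid-labile subunit of the plasma complex, had 14 and 22 UMIs.

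H19 was lower in HFD in all 4 stromal classes. It had 69.3 and 12.7 CPM in keratin-low cells, a ratio of 0.183 (0.156 to 0.213), and 62.4 and 10.2 CPM in APC-like cells, a ratio of 0.164 (0.119 to 0.224). Cycling and keratin-high cells had ratios of 0.383 and 0.386. Among cells with equal numbers of mesothelial markers, H19 was lower in HFD in 5 of the 6 bins with 50 or more UMIs. Those bins, from 1 to 5 markers, had ratios from 0.0810 to 0.483. In the bin with 0 markers H19 was higher in HFD, at 262 against 110.1 CPM, from 81 UMIs in 30 HFD cells. The ratio at a matched mix was 0.774. It leans on this bin, whose 30 HFD cells were weighted together with 616 LFD cells. In cycling cells H19 was lower in 2 of the 3 bins with 50 or more UMIs. The ratio at a matched mix was 0.728, less than a 2-fold difference. It held only cells with 1 to 10 markers, while the ratio of 0.383 covers the whole class. The CCN genes, which encode matricellular proteins once counted as binding protein relatives, differed among themselves. Ccn1 was higher in HFD in all 4 stromal classes, reaching 1.97 in keratin-low cells. Ccn4 was lower in keratin-low (0.758), keratin-high (0.750) and APC-like cells (0.609), and in cycling cells the interval of its ratio (0.944) held 1. Ccn3 was higher in HFD in all 4 stromal classes, with ratios from 2.12 in keratin-low to 5.71 in APC-like cells, and 1.97 in cycling cells with median-ratio scaling. Ccn2 had ratios of 10.8 in keratin-low and 5.67 in keratin-high cells. In APC-like cells Ccn2 had 2 LFD and 93 HFD UMIs, a ratio of 16.5 (4.44 to 138). Ccn5 had a ratio of 0.493 in keratin-low and 1.41 in APC-like cells.

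Adamts1, a gene of a secreted metalloprotease, had 179.9 and 236 CPM in keratin-low cells (ratio 1.31) and 292 and 441 CPM in endothelial-like cells (ratio 1.51). Pappa was at 38.7 and 62.3 CPM in keratin-low cells, where its substrate Igfbp4 was lower in HFD, and the Pappa ratio was 1.61 (1.48 to 1.76). Its ratio was 1.97 in keratin-high and 1.80 in cycling cells, and in APC-like cells 0.920 (0.583 to 1.49). The serine proteases Htra1 and Htra3, of which the first is known to cut Igfbp5 protein, had ratios of 1.85 (1.60 to 2.14) and 2.28 (2.04 to 2.56) in APC-like cells and 0.826 and 0.659 in keratin-low cells. Stc2, an inhibitor of the Pappa product, was lower in keratin-low and cycling cells, with 92 and 16 and with 54 and 21 UMIs. Lrp2, an endocytic receptor, had a ratio of 2.21 in keratin-high and 2.42 in cycling cells. Of the growth hormone axis, Ghr had 51.5 and 54.2 CPM in APC-like cells, a ratio of 1.05 (0.844 to 1.32). Cish and Socs2, which growth hormone and other cytokines induce, differed in direction in APC-like cells, with ratios of 0.393 and 1.45, and Cish was called lower in macrophage-like cells (0.473, from 35 and 23 UMIs). Both were lower in the 3 Wt1+ classes, with ratios from 0.524 to 0.721. Igf2bp2, an RNA-binding protein gene, had a ratio of 0.496 in APC-like cells. Socs2 in cycling B-like cells (2.64) and Foxo1 in plasma cell-like cells (3.15, from 10 and 190 UMIs) were the lymphoid genes called higher.

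**Figure D4:**
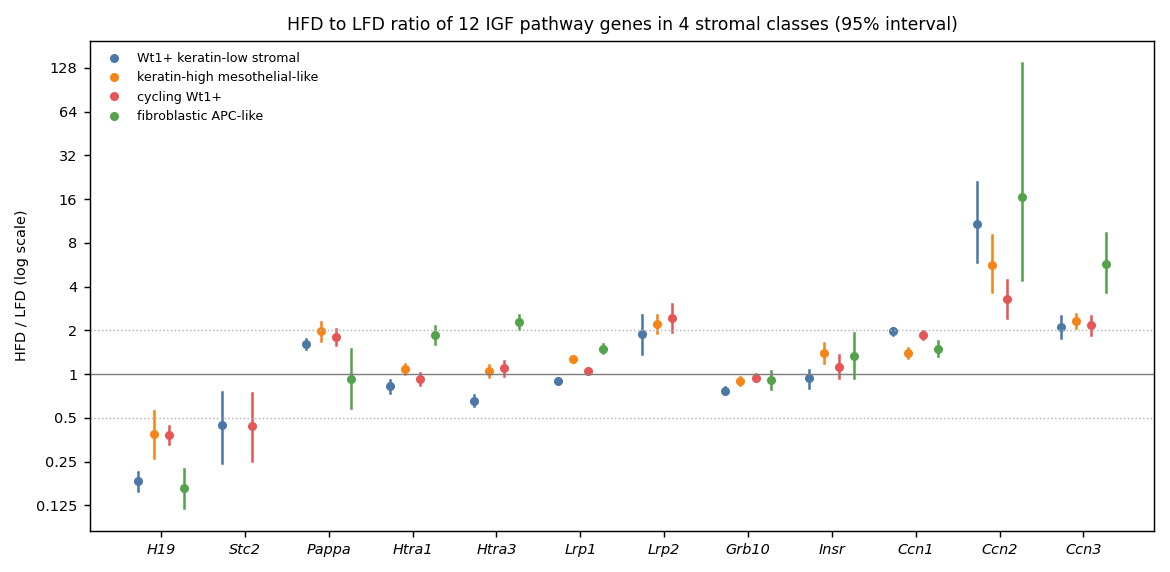
HFD to LFD ratio (log axis, 95% intervals) of 12 further IGF pathway genes in the 4 stromal classes, with dotted lines at 0.5 and 2. H19 lies below 0.5 and Ccn2 and Ccn3 above 2 in all 4 classes, and Htra1 and Htra3 lie above 1 in APC-like (green) and below 1 in keratin-low cells (blue).

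Among receptor and adaptor genes, Lrp1, a large endocytic receptor, had 455 and 682 CPM in APC-like cells with a ratio of 1.499. Insr, the insulin receptor gene, was highest in endothelial-like cells and lower there in HFD, at 80.9 and 52.8 CPM, a ratio of 0.653 (0.523 to 0.813), beside the Igf1r ratio of 1.51 in the same cells. Grb10, an imprinted adaptor that dampens both receptors, had 153 and 118 CPM in keratin-low cells, a ratio of 0.770 (0.729 to 0.814). Irs2 had ratios of 1.62 and 1.66 in plasma cell-like and cycling plasma cell-like cells. Akt1 and Akt2, the kinases downstream, had ratios from 1.05 to 1.24 in the 4 stromal classes, and none was called.

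Over the 21 points made by a class and a library with at least 100 cells, the 8 IGF genes with enough counts, all but Igf2 and Igfbp2, were set beside the 9724 genes that reached 20 CPM in at least 1 point, on the scale of log2(CPM + 1). The points share libraries and depth, so the correlations are descriptions without a p-value. Igf1 was most like Serf2 (Pearson r = 0.944), Steap3 and Cd302, and Igf1r most like Mbnl2 (0.946), Tgoln1 and Rnf11. Igf2r was most like Ltbr (0.966), Tnfrsf1a and App. Igfbp3 was most like Plxna2 (0.973), Tcim and Tjp1, and Igfbp4 most like Clmp (0.987), Il11ra1 and 2010320M18Rik. Igfbp5 was most like Itgb4 (0.910), Gnai1 and Fhl1, Igfbp6 most like Scrn1 (0.983), Fndc1 and Hebp2, and Igfbp7 most like Dlc1 (0.992), Mxra7 and Plpp1. Among the IGF genes themselves the closest pairs were Igfbp3 with Igfbp7 (0.915), Igf1 with Igfbp4 (0.887) and Igfbp4 with Igfbp6 (0.881).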

How the data were processed

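The values the authors deposited were unnormalised UMI counts for each gene and barcode, made with Cell Ranger 4.0.0 on mm10 per the submitters' processing notes. No column of another sample was present. Cells with 500 to 40000 UMIs, at least 100 genes and under 12.5% mitochondrial UMIs were kept, 10216 LFD and 8537 HFD cells. Seed cells passing marker gates gave class profiles without the IGF and pathway genes, and each cell took the class of highest multinomial likelihood. Doublets, the cells best explained by a pair of lineages, were removed at 0.8% per 1000 barcodes (922 LFD and 658 HFD), and 392 and 129 cells with too few of their own markers stayed unassigned. Counts were summed per class and library, with ratios only in classes of at least 100 cells in both. With 1 library per diet no test was made. Named genes were the 10 genes, pathway genes past 2-fold whose interval left out 1, the leading acid-labile subunit, receptor, adaptor and protease genes by level, and the 3 most correlated genes of each. Other genes named, among them Ccn1, Ccn4, Pappa, Ghr, Akt1, Akt2, Igfbp1 and Igfbpl1, were picked after their values were seen. The genes, lists and alternatives were chosen with earlier results of these data known. Assignment and ratios were tested on simulated data. Of the gene IDs, 32158 were found in GENCODE M21, from which gene positions were taken. Python 3.11.15, numpy 2.4.6, scipy 1.17.1 and pandas 2.3.3 were used. In comparisons by number of mesothelial markers, bins were weighted by their cells of both libraries together. Bins with too few cells in either library were left out, which left 1 to 10 markers in the cycling class.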

Additional observations from a re-analysis of the deposited data

Results flagged for a closer look

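For Igf1, Igfbp3, Igfbp4 and Igfbp7 the HFD to LFD ratios lay on opposite sides of 1, beyond counting error, in different classes. With 1 library per diet the difference between classes was not tested. Igf1 was higher in HFD in macrophage-like cells (1.32) and lower in keratin-low cells (0.381), so that the first ratio was 3.45 times the second. Igfbp3 was higher in keratin-high cells (1.68) and lower in keratin-low cells (0.744), ratios that differed by 2.25 times. Igfbp4 was higher in keratin-high cells (1.08) and lower in cycling B-like cells (0.272), ratios that differed by 3.95 times, where the cycling B-like level of 31.6 and 8.60 CPM stood beside free RNA estimates of 23.4 and 10.7 CPM. Igfbp7 was higher in APC-like cells (1.09) and lower in B-like cells (0.634), ratios that differed by 1.72 times, where the B-like levels of 23.1 and 14.6 CPM were under the free RNA estimates of 25.1 and 15.8 CPM. Of these ratios, the Igf1 one in macrophage-like cells turned to 0.806 and the Igfbp3 one in keratin-high cells to 0.734 under the stricter cell filter, and the Igfbp4 one in keratin-high cells to 0.996 with median-ratio scaling.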

How the results depend on the processing

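No paired analysis was possible because each diet had 1 library, and for the same reason no replicate could be left out. Of 568 ratios recomputed under alternatives, from 59 ratios, 22 moved by over 1.5 times and 32 lay on the other side of 1, among them 12 of ratios whose own interval left out 1, which are given here. Of 767 recomputed levels, from 96 levels, 42 moved by over 1.5 times, 1 of them to 0 (Igfbp7 in LFD B-like cells with free RNA subtracted). Under the stricter cell filter (at least 2000 UMIs, under 5% mitochondrial) the ratios turned to 1.02 for Igfbp7 in keratin-low, 0.734 for Igfbp3 and 0.975 for Igfbp4 in keratin-high, and 0.806 for Igf1 in macrophage-like cells. With marker gate cells only they turned to 0.718 for Igfbp5 in keratin-low, 1.03 for Igfbp7 in keratin-high and 0.997 for Igfbp7 in cycling cells. Median-ratio scaling turned Igfbp4 (0.996) and Igfbp6 (0.989) in keratin-high and Igfbp7 (0.952) in cycling cells. Igfbp3 in endothelial-like cells turned to 0.909 without doublet removal and 0.861 without the top 1% of cells. The Igf1 ratio in keratin-low cells was 0.363, 0.362 and 0.359 under the stricter filter, mean per-cell CPM and median-ratio scaling, in keratin-high cells 0.384 (stricter) and 0.656 (gate), in cycling cells 0.631 (stricter) and 0.439 (median-ratio), and in APC-like cells 0.575 (gate) and 0.593 (median-ratio). The Igfbp4 ratio in keratin-low cells was 0.613 (stricter), 0.559 (gate) and 0.561 (median-ratio). The Igfbp5 ratio was 3.72 (stricter) and 6.54 (without the top 1%) in keratin-high, 13.6 (without the top 1%) in cycling and 2.74 (gate) in endothelial-like cells. The number of pathway genes past 2-fold, summed over classes, was 25 at 50 or more UMIs and 14 at 200 or more, where fewer genes were counted. The cause of the other shifts was not tested. APC-like cells could not be compared under the stricter filter, with 38 LFD cells left. The same held for B-like cells, with 56 LFD and 5 HFD cells left, and cycling B-like cells, with 53 and 11. Leaving out the barcodes found in both libraries, an alternative chosen after seeing the data, moved each of the 59 ratios by less than its counting error. Igf2 and Igfbp2 had under 50 UMIs in every class, the minimum set for a ratio. Without that minimum the Igfbp2 ratio was 2.55 (1.09 to 5.97) in keratin-low and 2.42 (1.10 to 6.07) in keratin-high cells.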

Other observations

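Macrophage-like cells with Igf1 and those with Igfbp4 both had more Cd163, which was among the markers of the class, and more Ccl8. The genes given here were chosen after their values were seen. In cells with 2 or more Igf1 UMIs (88 LFD and 145 HFD) against cells with 0, Cd163, a scavenger receptor of resident macrophages, was at 57.6 against 6.17 CPM in LFD and 60.2 against 10.0 CPM in HFD. The chemokine gene Ccl8 was at 416 against 71.7 CPM and at 545 against 85.6 CPM. In cells with 2 or more Igfbp4 UMIs (88 and 124), Cd163 was at 67.8 against 4.89 CPM and 107 against 5.20 CPM, and Ccl8 at 572 against 52.2 CPM and 915 against 31.8 CPM. Gas6, given for Igfbp4 only, was at 346 against 35.9 CPM and 471 against 26.0 CPM. The endothelial-like cells with 2 or more Igfbp3 UMIs (41 and 35) had more Esm1, a gene of sprouting endothelium, at 317 against 27.1 CPM in LFD and 233 against 35.6 CPM in HFD, and more Chga, at 274 against 14.7 CPM and 165 against 10.7 CPM. These cells were also deeper, with medians of 9058 and 8016 UMIs against 3056 and 2748. In keratin-high cells with 2 or more Igfbp5 UMIs (69 and 378) the mesothelial mucin gene Muc16, itself among the mesothelial markers, was at 22.6 against 3.25 CPM and 25.1 against 5.70 CPM. Smoc2, among the fibroblastic markers, was higher in these cells as well, at 16.1 against 3.32 CPM and 6.10 against 2.33 CPM.

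Neutrophil-like cells, too few and too shallow for a ratio (153 LFD and 50 HFD cells, medians of 1226 and 1015.5 UMIs), had the highest Igf1r level of the classes other than mural-like cells, at 139 CPM (90.5 to 203) from 26 UMIs and 399 CPM (247 to 609) from 21 UMIs. Their Igf2r level was 58.6 CPM (29.3 to 105) from 11 UMIs and 114 CPM (41.8 to 248) from 6 UMIs, with intervals that overlapped those of APC-like cells. Their Igfbp6 level was 197 and 189.8 CPM, from 37 and 10 UMIs, against free RNA estimates of 31.8 and 29.2 CPM. ILC2-like cells had 224 and 474 CPM of Irs2 and 320 and 502 CPM of Socs2. At 2000 UMIs per cell, APC-like cells showed 3 or more of the 6 binding protein genes in 35.3% of LFD and 54.4% of HFD cells, keratin-low cells in 26.8% and 24.97%, and keratin-high cells in 43.2% and 47.6%.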
